A study of Homo sapiens with 23 samples.

Results

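RNA levels of 10 genes of the BCL2 family were followed across the AGO knockout series of HCT116 cells, which derive from a human colorectal carcinoma. The 10 genes are *BCL2*, *BCL2L1*, *BCL2L2*, *MCL1*, *BCL2L11*, *BAX*, *BBC3*, *PMAIP1*, *BID* and *BIK*. They were taken by symbol and matched to Ensembl identifiers in the count files. All 10 were found among the 57875 genes listed, and all 10 were among the 22842 genes that passed the filter on low counts.

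Total RNA was sequenced from 3 replicates each of wild-type cells and of 4 knockout lines made from them by CRISPR editing. The lines lack *AGO1*, *AGO2*, *AGO1* and *AGO2* together (*AGO1/2* knockout cells), or *AGO1*, *AGO2* and *AGO3* together (*AGO1/2/3* knockout cells), 15 samples in all. *AGO4* was not targeted in any line. No drug or other treatment was applied, and every line was grown in the same medium with serum and harvested at the same time after seeding. Each genotype is represented by a single line, so genotype and line cannot be told apart. Levels are given as CPM, the usual depth-scaled unit, from estimated counts after TMM scaling,, and log2 fold changes are given with their standard error (SE) from a model of the 15 samples. A gene was called higher or lower at an edgeR adjusted p at or under 0.05, where edgeR adjusted p stands for the quasi-likelihood p of edgeR after Benjamini-Hochberg adjustment over the genes tested.

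Proteins of the BCL2 family decide at the outer mitochondrial membrane whether a cell enters intrinsic apoptosis. The pro-survival members BCL2, BCL-XL (from *BCL2L1*), BCL-w (from *BCL2L2*) and MCL1 hold back the effector BAX, which otherwise forms pores that release cytochrome c. The BH3-only proteins BIM (from *BCL2L11*), PUMA (from *BBC3*), NOXA (from *PMAIP1*), BID and BIK bind the pro-survival members or the effectors and favour death. Argonaute (AGO) proteins carry miRNAs to matching sites, mostly in 3′ untranslated regions (3′ UTRs), where they lower RNA level or translation. *BCL2* is a known target of miR-15/16, and *BCL2L11* is a known target of the miR-17-92 cluster.

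The mature miRNAs are shown because they define which letters were searched for in the members' 3′ UTRs. Sequences are from RefSeq on GRCh38.p14, written 5′ to 3′, and capitals mark the seed, bases 2 to 8.
hsa-miR-15a-5p: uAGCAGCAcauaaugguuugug
hsa-miR-16-5p: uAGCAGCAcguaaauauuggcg
hsa-miR-17-5p: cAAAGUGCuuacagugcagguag
hsa-miR-19a-3p: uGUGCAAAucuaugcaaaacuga
hsa-miR-92a-3p: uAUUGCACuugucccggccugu

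miR-15b-5p shares the seed of miR-15a-5p and miR-16-5p, miR-20a-5p that of miR-17-5p, and miR-19b-3p that of miR-19a-3p. The letters searched for on the transcript strand were TGCTGCT for miR-15/16, GCACTTT for miR-17/20a, GCACCTT for miR-18a, TTTGCAC for miR-19 and GTGCAAT for miR-92a. No overlap between these letters was removed. The 3′ UTRs of 5 members held 18 matches in all, and those of *BCL2L1*, *BAX*, *BBC3*, *PMAIP1* and *BID* held none of these letters.

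The 3′ UTR of *BCL2* (5279 bases, transcript ENST00000333681.5) held 1 miR-15/16 match, 2 miR-17/20a matches and 1 miR-92a match. Among the 3′ UTRs of like length (within 20%), 51.1% held a miR-15/16 match, 55.2% a miR-17/20a match and 31.8% a miR-92a match. The 3′ UTR of *BCL2L11* (4213 bases, ENST00000393256.8) held 1 miR-15/16, 1 miR-17/20a, 1 miR-19 and 2 miR-92a matches, against 45.9%, 49.4%, 31.4% and 26.7% of 3′ UTRs of like length with at least 1. In *BCL2L2* (2786 bases) there were 4 miR-15/16 matches and 2 miR-17/20a matches, where 35.2% and 37.7% of 3′ UTRs of like length held at least 1. Shares of 3′ UTRs with more than 1 match were not counted for any member. *MCL1* (2817 bases) held 1 miR-17/20a and 1 miR-92a match, against 38.1% and 19.2%, and the short 3′ UTR of *BIK* (407 bases) held 1 miR-15/16 match, against 7.93%. The matches that belong to the known pairings, and the miR-15/16 matches of the other members, lie in 3′ UTRs on GRCh38 and read as follows, with the match in capitals.
BCL2, miR-15/16 match, chr18:63126087-63126109, minus strand: atatccaatcctgTGCTGCTatc
BCL2L11, miR-17/20a match, chr2:111166217-111166239, plus strand: tctcctgactagaGCACTTTact
BCL2L11, miR-19 match, chr2:111168310-111168332, plus strand: ggcttacttgtgtTTTGCACtga
BCL2L11, miR-92a match, chr2:111166913-111166935, plus strand: gccaaatgtctgtGTGCAATtgt
BCL2L11, miR-92a match, chr2:111168352-111168374, plus strand: tgccactttacttGTGCAATact
BCL2L11, miR-15/16 match, chr2:111165203-111165225, plus strand: ctacgcccctttgTGCTGCTggc
BCL2L2, miR-15/16 match, chr14:23309625-23309647, plus strand: agaccgagggctcTGCTGCTtct
BCL2L2, miR-15/16 match, chr14:23309729-23309751, plus strand: tgcattatgcactTGCTGCTgcc
BCL2L2, miR-15/16 match, chr14:23310342-23310364, plus strand: aaggtgctaagatTGCTGCTctc
BCL2L2, miR-15/16 match, chr14:23310885-23310907, plus strand: gcattaaggggttTGCTGCTgaa
BIK, miR-15/16 match, chr22:43129357-43129379, plus strand: ggaggtggcggccTGCTGCTgtt

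A match is a run of letters and not a measured site of AGO binding. The eCLIP samples of the series were not analysed here.

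**Figure D1:**
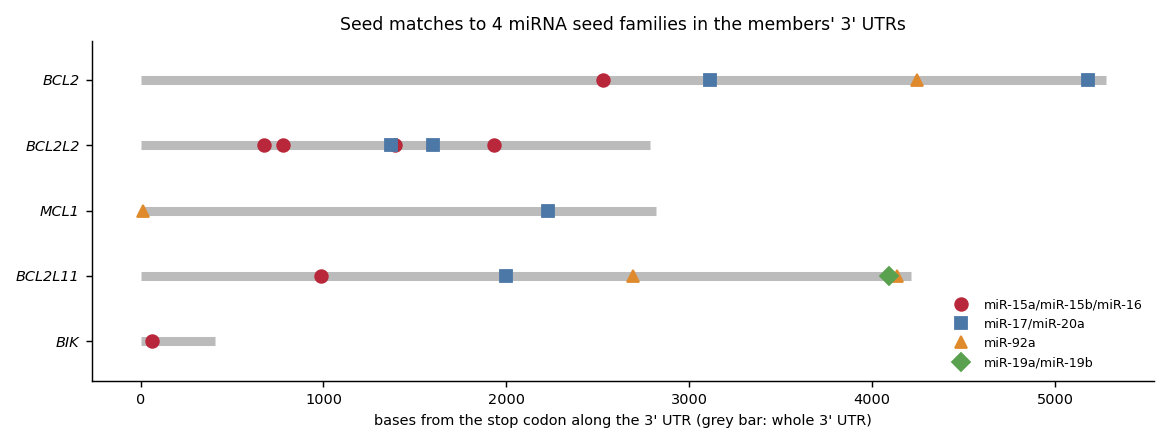
Map of the seed matches in the 3′ UTRs of the 5 members that hold any. The x axis is the distance in bases from the stop codon, grey bars are whole 3′ UTRs, and symbols are matches by seed family, 4 in *BCL2*, 6 in *BCL2L2*, 2 in *MCL1*, 5 in *BCL2L11* and 1 in *BIK*.

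RNA from *AGO1* ranged from 28.7 to 39.5 CPM in the 9 samples of the lines that lack the gene and from 108 to 161 CPM in the other 6. *AGO3* RNA was 2.17-fold lower in *AGO1/2/3* knockout cells than in wild-type cells. *AGO2* RNA was 1.42-fold lower in *AGO2* knockout cells, not called in *AGO1/2* knockout cells and 1.32-fold higher in *AGO1/2/3* knockout cells, so its RNA level does not check the *AGO2* label, since an edited gene can still be transcribed. Total counts per sample ranged from 27709971 to 45271146. Files of the *AGO2* single-knockout line carry a different quantification mode in their headers, so mode cannot be told apart from genotype for that line. The lines with combined knockouts lack *AGO2* too, but their files carry the same mode as those of wild-type cells. Of 8 epithelial markers, *KRT8*, *KRT18* and *KRT19* carried most of a summed level of 1325 to 2637 CPM in the 15 samples, while *CDH17*, *LGALS4* and *VIL1* stayed under 0.5 CPM in every sample. In *AGO1/2/3* knockout cells 1 of the 6 epithelial markers tested was higher and 2 were lower, against 20.2% and 19.7% of all genes tested. *CDH1* fell by 3.51 and *EPCAM* by 1.74 on the log2 scale, both called under all 23 alternatives, while *KRT8* was 1.33-fold higher. The *KRT8* call was lost in 4 fits without a single library and in 2 others (edgeR adjusted p up to 0.141). In *AGO1/2* knockout cells 2 were higher (*KRT8* and *KRT19*) and 2 lower (*CDH1* and *EPCAM*), against 8.38% and 8.3% of all genes tested. There the *KRT19* call was lost without *AGO1/2* knockout replicate 2 and when only the 6 samples compared were fitted (edgeR adjusted p up to 0.0885). In *AGO1* knockout cells *CDH1* and *EPCAM* were lower, 2 of 6 against 5.45% of all genes. In *AGO2* knockout cells *EPCAM* was higher and *KRT18* lower, 1 of 6 each against 8.43% and 10.5%. Each of the calls in these single knockouts was lost when only the 6 samples compared were fitted. The 9 markers of fibroblasts, leukocytes and endothelium summed to between 14.2 and 34.0 CPM, mostly *COL1A1*, and *CD3E*, which defines T cells, was at 0 in all samples of 3 lines. *COL1A1* was lower in the *AGO1*, *AGO2* and *AGO1/2* lines (1.94-fold, 2.25-fold and 2.04-fold). *COL3A1* was called higher in the *AGO1* line (0.365 to 0.900 CPM) and the *AGO1/2/3* line (0.455 to 0.485 CPM), against at most 0.0940 CPM in the other samples. The part of these markers in the members' values was not tested.

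Members of the family were called in every knockout line. In *AGO1* knockout cells 3 of the 10 members were called, *BAX* higher and *BCL2L1* and *BCL2L2* lower, against 8.57% of all genes tested (3.13% higher and 5.45% lower). In *AGO2* knockout cells *BID* was higher and *BCL2* and *BBC3* were lower, 3 of 10 against 18.9% of all genes (8.43% higher, 10.5% lower). In *AGO1/2* knockout cells *BCL2L11* and *BAX* were higher and *BCL2* was lower, 3 of 10 against 16.7% (8.38% higher, 8.3% lower). In *AGO1/2/3* knockout cells *BCL2L1*, *BCL2L11*, *PMAIP1* and *BID* were higher and *BBC3* and *BIK* were lower, 6 of 10 against 40% (20.2% higher, 19.7% lower). The 8 alternatives that changed a setting or a sample set, without leaving out a single library, called 4 or 5 members there. They called 7927 to 9393 of all genes, of 17590 to 42905 tested. The median log2 fold change of the 10 members was 0.00, -0.04, 0.10 and 0.15 in the 4 lines in that order, beside -0.01, -0.02, 0.01 and -0.01 over all genes. No member was called in all 4 lines, and *MCL1* was called in none of them. The 4 comparisons share the wild-type samples.

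**Figure D2:**
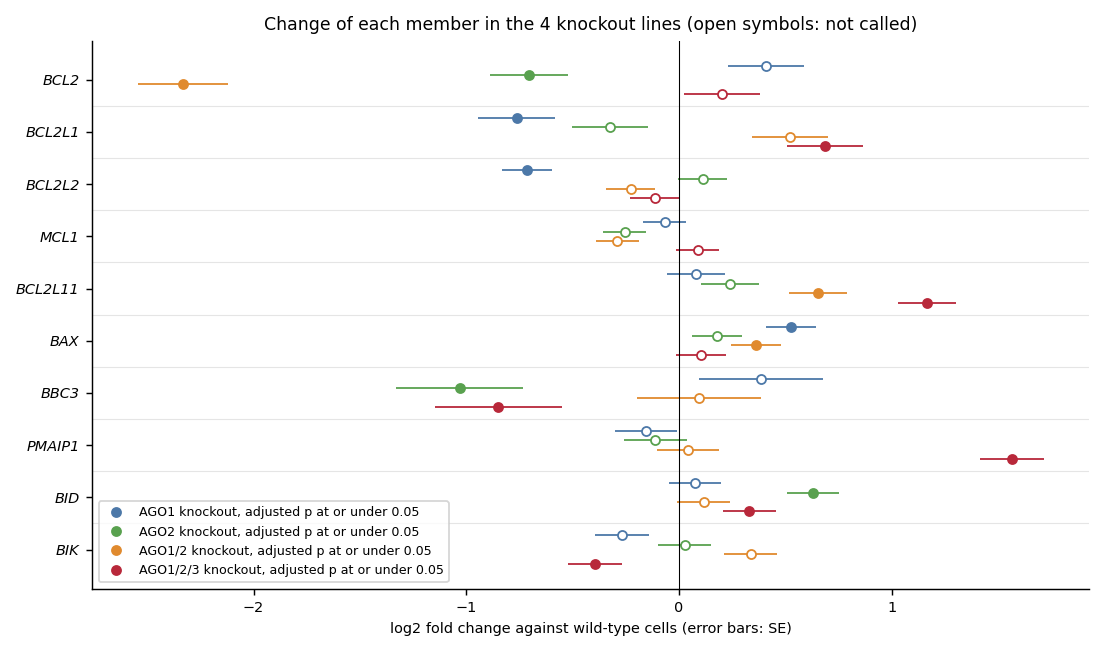
Log2 fold change against wild-type cells of each member in the 4 knockout lines. Points are estimates from the model with SE as error bars, filled where the edgeR adjusted p was at or under 0.05. *BCL2* in *AGO1/2* knockout cells (-2.33) and *PMAIP1* in *AGO1/2/3* knockout cells (1.57) lie farthest from 0.

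*BCL2* (ENSG00000171791, chr18:63123346-63320128, minus strand) encodes the founding pro-survival protein and was the member with the widest spread between lines. Wild-type replicates were at 5.76, 4.53 and 4.19 CPM, and *AGO1* knockout replicates at 6.57, 5.99 and 6.67. *AGO2* knockout replicates were at 2.69, 3.01 and 3.19 CPM, *AGO1/2* knockout replicates at 1.31, 0.862 and 0.663, and *AGO1/2/3* knockout replicates at 4.77, 5.99 and 5.93. All *AGO2* and *AGO1/2* knockout samples lay below all wild-type samples, all *AGO1* knockout samples lay above them, and the *AGO1/2/3* knockout samples overlapped with wild-type cells. *BCL2* was thus 5.04-fold lower in *AGO1/2* knockout cells (log2 -2.33, SE 0.21, edgeR adjusted p = 1.96e-06), a value that rests on 41, 25 and 18 estimated counts against 184, 142 and 139 in wild-type cells. In *AGO2* knockout cells it fell by 0.70 (SE 0.18, edgeR adjusted p = 0.0178), a call that was lost without wild-type replicate 1 (edgeR adjusted p = 0.0641) or without *AGO2* knockout replicate 2 (0.0578). Neither *AGO1* knockout cells (0.41, SE 0.18) nor *AGO1/2/3* knockout cells (0.20, SE 0.18) passed the test. *BCL2* was 5.80-fold higher in *AGO1/2/3* than in *AGO1/2* knockout cells (log2 2.54, SE 0.21, edgeR adjusted p = 6.27e-07).

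In the order of mean *BCL2* level, *AGO1* knockout cells (6.41 CPM ± 0.365, SD, n = 3), *AGO1/2/3* knockout cells (5.56 ± 0.687) and wild-type cells (4.83 ± 0.829) did not differ from their neighbours in the test. Wild-type cells and *AGO2* knockout cells (2.96 ± 0.256) differed, as did *AGO2* and *AGO1/2* knockout cells (0.946 ± 0.333), the latter by 1.63 on the log2 scale. The 23 genes tested within 5 Mb of *BCL2* had a median change (log2) of 0.15 where *BCL2* fell, in *AGO1/2* knockout cells, and of 0.41 in *AGO1/2/3* knockout cells. Of 12923 protein-coding genes averaging 1 CPM or more, *CHD7*, *DAB2* and *PLCB4* had the pattern most like that of *BCL2*, with Pearson's r of 0.96, 0.95 and 0.94 over the 15 samples, which share 5 lines and so are not independent points. *DAB2*, for example, averaged 1.92 CPM in *AGO1/2* knockout cells and 15.8 CPM in *AGO1/2/3* knockout cells, beside 10.8 CPM in wild-type cells.

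*BCL2L1* (ENSG00000171552, chr20:31664452-31723989, minus strand), which encodes BCL-XL, was lower in *AGO1* and higher in *AGO1/2/3* knockout cells than in wild-type cells. Wild-type replicates were at 179.6, 229 and 172 CPM, *AGO1* knockout replicates at 91.6, 124 and 126 and *AGO2* knockout replicates at 129, 194 and 141. In *AGO1/2* knockout cells it was at 222, 280.3 and 331 CPM, and in *AGO1/2/3* knockout cells at 289, 322 and 324. The *AGO1* knockout samples all lay below the wild-type samples, the *AGO1/2/3* knockout samples all lay above them, and the other lines overlapped with wild-type cells. *BCL2L1* fell by 0.76 in *AGO1* knockout cells (SE 0.18, edgeR adjusted p = 0.0149), a call lost without *AGO1* knockout replicate 1 (0.0712) and when only the 6 samples compared were fitted (0.0564). It was 1.61-fold higher in *AGO1/2/3* knockout cells (log2 0.69, SE 0.18, edgeR adjusted p = 0.00601), and the value in *AGO1/2* knockout cells (0.52, SE 0.18) missed the threshold at an edgeR adjusted p of 0.0584 and passed it in 7 of 23 alternatives. The difference between *AGO1/2* and *AGO1* knockout cells, 2.44-fold, passed the test (edgeR adjusted p = 0.000106). An antisense RNA of the locus, *ABALON*, shares 1735 of the 4197 exon bases of *BCL2L1* and had a mean of 50.8 estimated counts per sample, against 2944 to 11322 for *BCL2L1*.

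*BCL2L2* (ENSG00000129473, chr14:23298790-23311751, plus strand), which encodes BCL-w, was lower in *AGO1* knockout cells only among the 4 lines compared with wild-type cells. The *AGO1* knockout replicates were at 26.0, 25.8 and 24.8 CPM and the wild-type replicates at 41.6, 47.4 and 36.5. They did not overlap, and the fall of 0.71 (SE 0.12, edgeR adjusted p = 0.00136) stayed called under all 23 alternatives. The other 9 knockout samples ranged from 30.6 to 46.5 CPM, around the wild-type values. Levels in *AGO1* knockout cells were also lower than in each of the other knockout lines, by 0.82 against *AGO2*, 0.49 against *AGO1/2* and 0.60 against *AGO1/2/3* knockout cells (edgeR adjusted p = 0.000213, 0.00750 and 0.000646), of which the second was lost without *AGO1/2* knockout replicate 3 (0.0624). The readthrough gene *BCL2L2-PABPN1* shares 815 of the 4840 exon bases on the same strand, so the counting can split reads between them. It had a mean of 83.6 estimated counts per sample and was called 1.95-fold higher in *AGO1* and 2.02-fold lower in *AGO2* knockout cells.

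*MCL1* (ENSG00000143384, chr1:150560895-150579738, minus strand) encodes a short-lived pro-survival protein and varied little. Its range over the 15 samples was 221 to 323 CPM. Log2 fold changes against wild-type cells were -0.07 and -0.25 in the single, -0.29 in the double and 0.09 in the triple knockout, each with an SE of 0.10, and none passed the test (edgeR adjusted p from 0.0613 to 0.753). Alternatives called *MCL1* lower in 6 of 23 fits for the double knockout and in 2 of 22 for *AGO2* knockout cells. *AGO1/2/3* knockout replicates, at 299, 304 and 299 CPM, lay above the *AGO1/2* knockout replicates at 221, 223 and 250 CPM. That difference of 0.38 (SE 0.10, edgeR adjusted p = 0.0133) was lost without *AGO1/2* knockout replicate 1 (0.0511) or 2 (0.0632).

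**Figure D3:**
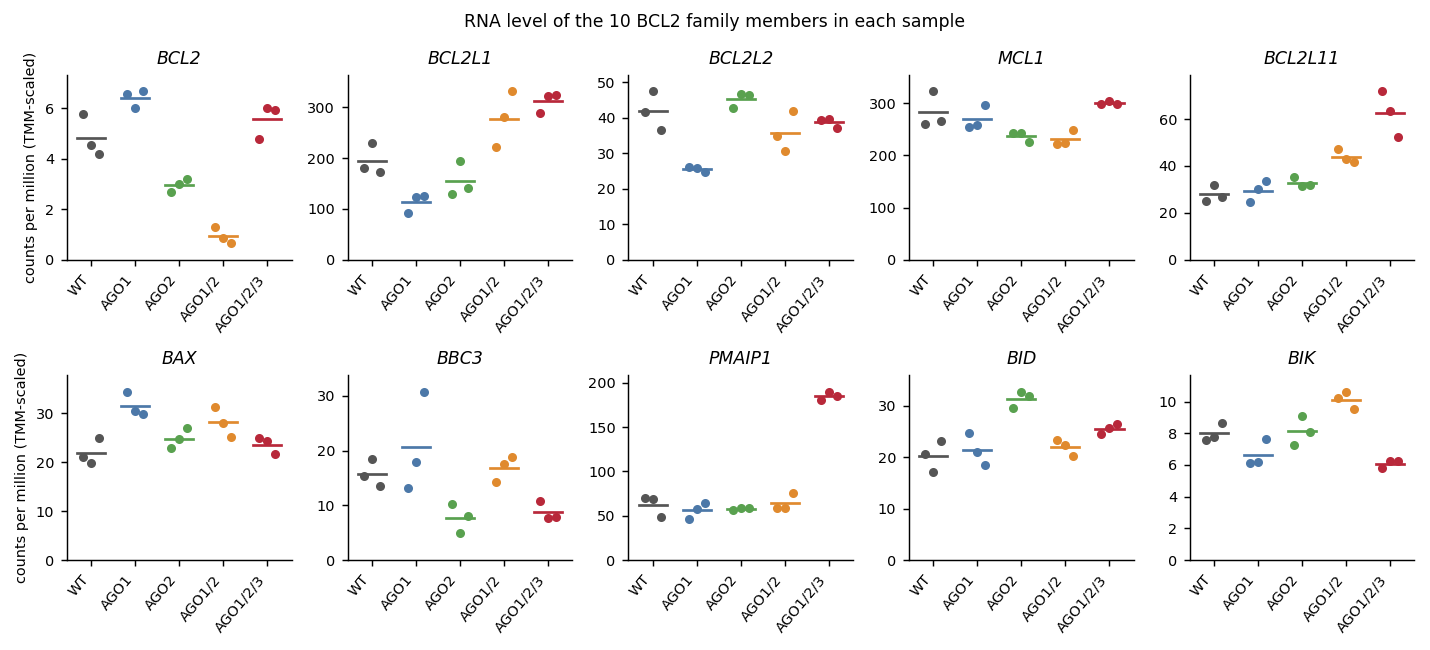
RNA level of each member in each of the 15 samples. The y axes are TMM-scaled CPM from 0, points are replicates, horizontal lines are means of 3, and WT marks wild-type cells. *PMAIP1* stands at 181 to 190.2 CPM in *AGO1/2/3* knockout cells and at 46.0 to 75.6 CPM elsewhere, and *BCL2* stands lowest in *AGO1/2* knockout cells.

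*BAX* (ENSG00000087088, chr19:48954815-48961798, plus strand), the pore-forming effector, was higher where *AGO1* alone was lost. *AGO1* knockout replicates were at 34.4, 30.4 and 29.9 CPM, all above the wild-type replicates at 21.0, 19.8 and 25.0. The increase of 1.44-fold (log2 0.53, SE 0.12, edgeR adjusted p = 0.0113) was lost without *AGO1* knockout replicate 1 (0.0569) and in the fit of only 6 samples (0.0812). In *AGO1/2* knockout cells *BAX* was at 31.3, 28.1 and 25.1 CPM, 1.28-fold higher (edgeR adjusted p = 0.0465), but 19 of 23 alternatives lost this call, 12 of them fits that left out a single library, with edgeR adjusted p up to 0.210. The *AGO2* knockout samples, at 22.8 to 27 CPM, and the *AGO1/2/3* knockout samples, at 21.6 to 24.9 CPM, overlapped with wild-type cells.

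*BCL2L11* (ENSG00000153094, chr2:111119378-111168444, plus strand), which encodes the BH3-only protein BIM, was highest in *AGO1/2/3* knockout cells and intermediate in *AGO1/2* knockout cells. Wild-type replicates were at 24.9, 31.9 and 26.8 CPM, *AGO1* knockout replicates at 24.4, 30.3 and 33.6 and *AGO2* knockout replicates at 35.4, 31.6 and 31.7. *AGO1/2* knockout replicates were at 47.0, 42.8 and 41.7 CPM and *AGO1/2/3* knockout replicates at 71.8, 63.5 and 52.4. Both combined knockouts lay above every sample of the other 3 lines and did not overlap with each other. The increase was 1.57-fold in *AGO1/2* knockout cells (log2 0.65, SE 0.14, edgeR adjusted p = 0.00361) and 2.24-fold in *AGO1/2/3* knockout cells (log2 1.17, SE 0.14, edgeR adjusted p = 5.81e-06), and both stayed called under all 23 alternatives. Single loss of *AGO1* (0.08, SE 0.14) or *AGO2* (0.24, SE 0.14) gave no call.

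In order of mean level, *AGO1/2/3* knockout cells (62.6 CPM ± 9.75, SD, n = 3) exceeded *AGO1/2* knockout cells (43.8 ± 2.84) by 0.51 on the log2 scale (SE 0.14, edgeR adjusted p = 0.0125). This call was lost without *AGO1/2* knockout replicate 3 (0.0637) or *AGO1/2/3* knockout replicate 1 (0.0716). *AGO1/2* knockout cells exceeded *AGO2* knockout cells (32.9 ± 2.15) by 0.41 (edgeR adjusted p = 0.0370), which 6 of 15 fits without a single library lost, with values up to 0.106. *AGO2* knockout, *AGO1* knockout (29.4 ± 4.64) and wild-type cells (27.9 ± 3.60) did not differ from their neighbours in the test. The lncRNA gene *MIR4435-2HG* lies on the opposite strand, shares 727 of the 6742 exon bases of *BCL2L11* and had a mean of 808 estimated counts per sample. It was 2.72-fold higher in *AGO1/2/3* knockout cells (log2 1.45, SE 0.19) and at 0.56 (SE 0.19, not called) in *AGO1/2* knockout cells. The library kit keeps strand, but whether the counting used it is not given in the sources used here, and the part of this gene in the *BCL2L11* values was not tested. The 47 genes tested within 5 Mb had a median of 0.03 in both combined knockouts. *ULBP3*, *TOR4A* and *PARP4* had the pattern most like that of *BCL2L11*, with r of 0.96, 0.95 and 0.95 over the 15 samples.

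*PMAIP1* (ENSG00000141682, chr18:59899996-59904305, plus strand) encodes NOXA, a BH3-only protein that binds MCL1, and changed in *AGO1/2/3* knockout cells. Wild-type replicates were at 70.4, 69.1 and 48.4 CPM and *AGO1* knockout replicates at 46.0, 58.2 and 64.6. *AGO2* knockout replicates were at 56.1, 58.7 and 59.2 CPM and *AGO1/2* knockout replicates at 58.9, 59.1 and 75.6. In *AGO1/2/3* knockout cells it was 181, 190.2 and 186 CPM. These 3 samples stood apart from the other 12, whose lines overlapped with one another. *PMAIP1* was 2.96-fold higher than in wild-type cells (log2 1.57, SE 0.15, edgeR adjusted p = 6.83e-07) and 2.88-fold higher than in *AGO1/2* knockout cells (log2 1.52, SE 0.15, edgeR adjusted p = 3.08e-06), and both stayed called under all 23 alternatives. Against *AGO1* and *AGO2* knockout cells it was higher by 1.72 and 1.68. In the 3 lines that keep *AGO3* the estimates were -0.16, -0.11 and 0.04 with an SE of 0.15 and gave no call. The 33 genes tested within 5 Mb of *PMAIP1* had a median of 0.29 in *AGO1/2/3* knockout cells. They include *BCL2*, which lies on the same chromosome, and the genes around *BCL2* include *PMAIP1*. The medians around these members are therefore not separate readings.

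*BBC3* (ENSG00000105327, chr19:47220822-47232766, minus strand), which encodes PUMA, was lower in *AGO2* knockout cells and in the triple knockout. Wild-type replicates were at 15.4, 18.6 and 13.5 CPM, *AGO2* knockout replicates at 10.2, 4.93 and 8.03, and *AGO1/2/3* knockout replicates at 10.7, 7.67 and 7.80. Neither line overlapped with wild-type cells. *BBC3* fell by 1.03 in *AGO2* knockout cells (SE 0.30, edgeR adjusted p = 0.0298) and by 0.85 in *AGO1/2/3* knockout cells (SE 0.30, edgeR adjusted p = 0.0351). The first call was lost without wild-type replicate 1 (0.0517) or 2 (0.108) and without *AGO2* knockout replicate 2 (0.11) or 3 (0.0764). The second was lost without the same wild-type replicates (0.0564 and 0.102) and without *AGO1/2/3* knockout replicate 2 (0.0995) or 3 (0.0909). In *AGO1/2* knockout cells *BBC3* stood at 14.3, 17.6 and 18.8 CPM, and *AGO1* knockout cells were the most variable, at 13.2, 18.0 and 30.8. *AGO1/2/3* knockout cells were lower than *AGO1/2* knockout cells by 0.94 (SE 0.30, edgeR adjusted p = 0.0364), which was lost without *AGO1/2* replicate 2 (0.0867) or 3 (0.0924) and without *AGO1/2/3* replicate 2 (0.116) or 3 (0.107). With no filter on low counts all 3 of these *BBC3* calls were lost (edgeR adjusted p = 0.0966, 0.0995 and 0.114).

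*BID* (ENSG00000015475, chr22:17734138-17774770, minus strand) encodes a BH3-only protein that caspase-8 activates by cleavage, and it was highest in *AGO2* knockout cells. Replicates there were at 29.5, 32.7 and 31.9 CPM, above the wild-type replicates at 20.5, 17.2 and 23.1. The 1.55-fold increase (log2 0.63, SE 0.12, edgeR adjusted p = 0.00425) stayed called under all 22 alternatives that apply to this comparison. *AGO1/2/3* knockout replicates were at 24.4, 25.6 and 26.5 CPM, 1.26-fold higher (edgeR adjusted p = 0.0432), but 21 of 23 alternatives lost this call, 13 of them fits without a single library, with edgeR adjusted p up to 0.253. *AGO1* and *AGO1/2* knockout samples, from 18.4 to 24.6 CPM, overlapped with wild-type cells.

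*BIK* (ENSG00000100290, chr22:43110750-43129712, plus strand), a BH3-only gene of the endoplasmic reticulum pathway, was lowest in *AGO1/2/3* and highest in *AGO1/2* knockout cells. *AGO1/2/3* knockout replicates were at 5.79, 6.24 and 6.24 CPM, *AGO1/2* knockout replicates at 10.2, 10.6 and 9.50 and wild-type replicates at 7.58, 7.78 and 8.65. The 3 lines did not overlap. *AGO1* knockout samples, at 6.13 to 7.64 CPM, and *AGO2* knockout samples, at 7.25 to 9.10 CPM, overlapped with wild-type cells and were not called. The fall of 0.40 from wild-type cells (SE 0.13, edgeR adjusted p = 0.0200) was lost without *AGO1/2/3* knockout replicate 1 (0.0541). The value in *AGO1/2* knockout cells (0.34, SE 0.12) gave an edgeR adjusted p of 0.0785. From *AGO1/2* to *AGO1/2/3* knockout cells *BIK* fell by 0.73 (SE 0.13, edgeR adjusted p = 0.000584), which held under all 23 alternatives.

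Loss of *AGO3* on top of *AGO1* and *AGO2* was described by *AGO1/2/3* against *AGO1/2* knockout cells. *BCL2*, *PMAIP1*, *BCL2L11* and *MCL1* were higher and *BBC3* and *BIK* were lower, 6 of 10 members against 21.9% of all genes tested (11.9% higher, 9.99% lower). *BCL2L1*, *BCL2L2*, *BAX* and *BID* gave estimates of 0.17, 0.11, -0.26 and 0.22 and were not called. The sum of the 2 single-knockout changes was set against the change in *AGO1/2* knockout cells as an interaction term. It was called for 4 of 10 members, *BCL2*, *BCL2L1*, *BID* and *BIK*, against 19.6% of all genes. Between the other pairs of lines, 4 members were called for *AGO2* against *AGO1* knockout cells (18.2% of all genes), 5 for *AGO1/2* against *AGO1* (19.5%), 6 for *AGO1/2* against *AGO2* (23.7%), 6 for *AGO1/2/3* against *AGO1* (40.5%) and 6 for *AGO1/2/3* against *AGO2* (40.1%).

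Levels were compared between genes only after division by exon length, as mean CPM per kilobase. Exon length was taken over all annotated exons of a gene, not over the transcripts present. For *BCL2*, for example, it was 12612 bases, with a 3′ UTR of 5279 bases. A gene with annotated exons that are not in its RNA is understated by this measure. The order, shares and sums depend on it. In wild-type cells *BCL2L1* (46.2) and *MCL1* (45.5) were the highest members by this measure, followed by *PMAIP1* (28.7), *BCL2L2* (8.65), *BAX* (8.48), *BIK* (8.42), *BBC3* (4.97), *BID* (4.58), *BCL2L11* (4.14) and *BCL2* (0.383). *BCL2* thus made up 0.380% of the summed level of the 4 pro-survival members, and *BCL2L1* and *MCL1* made up 45.9% and 45.2%. The pro-survival sum was 101 CPM per kilobase in wild-type cells. Single loss of *AGO1* or *AGO2* gave 76.3 and 84.6, and the double and triple knockouts gave 111 and 131. The sum of the 6 pro-apoptotic members was 59.2 in wild-type cells and 60.6, 59.1, 67.8 and 118 in the knockout lines in the same order. The share of *PMAIP1* in the latter was 48.4% in wild-type cells. It was 71.8% in *AGO1/2/3* knockout cells, where *PMAIP1* had the highest value of the 10 members at 84.9. RNA sums say nothing of protein, and effectors and BH3-only proteins act at different steps.

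**Figure D4:**
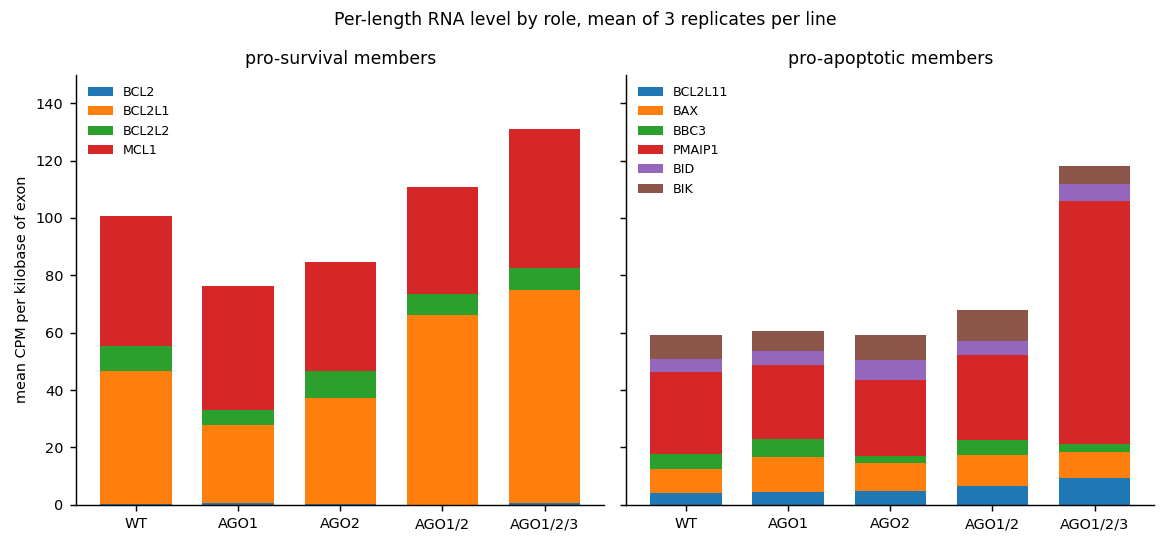
Mean CPM per kilobase, over all annotated exons, of the 4 pro-survival members (left) and the 6 pro-apoptotic members (right) in each line, stacked. Bars start at 0, and each segment is the mean of 3 replicates. The pro-apoptotic sum stands at 118 in *AGO1/2/3* knockout cells and between 59.1 and 67.8 in the other lines, with *PMAIP1* as the largest segment.

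Other genes of intrinsic apoptosis were described from lists set beside the members. Of 13 further BCL2 family genes, 11 were tested, and in *AGO1/2/3* knockout cells only *HRK*, a BH3-only gene, was called, 2.79-fold lower, where 40% of all genes were called. *BAK1*, the second effector, was not called in any line against wild-type cells, and *BCL2A1* and *BCL2L10* did not pass the filter. *AGO1/2/3* knockout cells had more RNA from 5 and less from 3 of 15 apoptosome, caspase and mitochondrial death genes, against 20.2% higher and 19.7% lower among all genes. Called genes included *DFFA*, which encodes the inhibitor of the apoptotic DNase (1.96-fold lower), the apoptosome scaffold *APAF1* (1.94-fold higher) and the initiator caspase *CASP10* (1.93-fold lower). In *AGO2* knockout cells 7 of the 15 were higher and 1 lower, against 8.43% and 10.5% of all genes, although fits without a single library or with other settings called as few as 1.

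Of 7 caspase inhibitor genes tested, 4 were higher in *AGO1/2/3* knockout cells and none lower, against 20.2% and 19.7% of all genes, namely *BIRC3* (3.28-fold), *BIRC2* (2.61-fold), *CFLAR* (1.85-fold) and *NAIP* (1.42-fold). The *NAIP* call was lost without wild-type replicate 3 and under scaling by total counts (edgeR adjusted p up to 0.0609). *BIRC2* and *BIRC3* encode cellular inhibitor of apoptosis proteins, and *CFLAR* encodes c-FLIP, which blocks caspase-8. *BIRC3* (2.26-fold) and *CFLAR* (1.32-fold) were also higher in *AGO1/2* knockout cells (2 of 7, against 8.38% of all genes). There *CFLAR* lost the call without wild-type replicate 1 or 3 or *AGO1/2* knockout replicate 2. It was also lost under scaling by total counts and in the fit of only 6 samples (edgeR adjusted p up to 0.111 over these fits). Of 6 ubiquitin pathway enzymes that act on MCL1, 4 were higher in *AGO1/2/3* knockout cells, where 20.2% of all genes were, led by *BTRC* (1.85-fold) and *FBXW7* (1.39-fold). The list was not split by the direction of action on MCL1, so the count gives no direction of MCL1 turnover, which was not measured. *USP9X* (1.26-fold) lost the call without wild-type replicate 3 or *AGO1/2/3* knockout replicate 3, and *FBXW11* (1.22-fold) without either of these or wild-type replicate 1. Both were also lost under scaling by total counts and in the fit of only 6 samples, and *FBXW11* with no filter on low counts. Over all these fits edgeR adjusted p reached 0.115 and 0.197. Of 10 transcription factors known to act on members, *TP73* (2.04-fold), *E2F1* (1.98-fold) and *STAT3* (1.47-fold) were higher and *DDIT3* (4.25-fold) and *ATF4* (1.91-fold) lower in *AGO1/2/3* knockout cells, 5 of 10 against 40% of all genes. *DDIT3* lost the call without wild-type replicate 1 or 2 and without each *AGO1/2/3* knockout replicate, *ATF4* without wild-type replicate 1 or 2, and *E2F1* without *AGO1/2/3* knockout replicate 1. Each of them was also lost with no filter on low counts, and *E2F1* in the fit of only 6 samples. Over all these fits edgeR adjusted p reached 0.0970, 0.0631 and 0.0900.

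**Figure D5:**
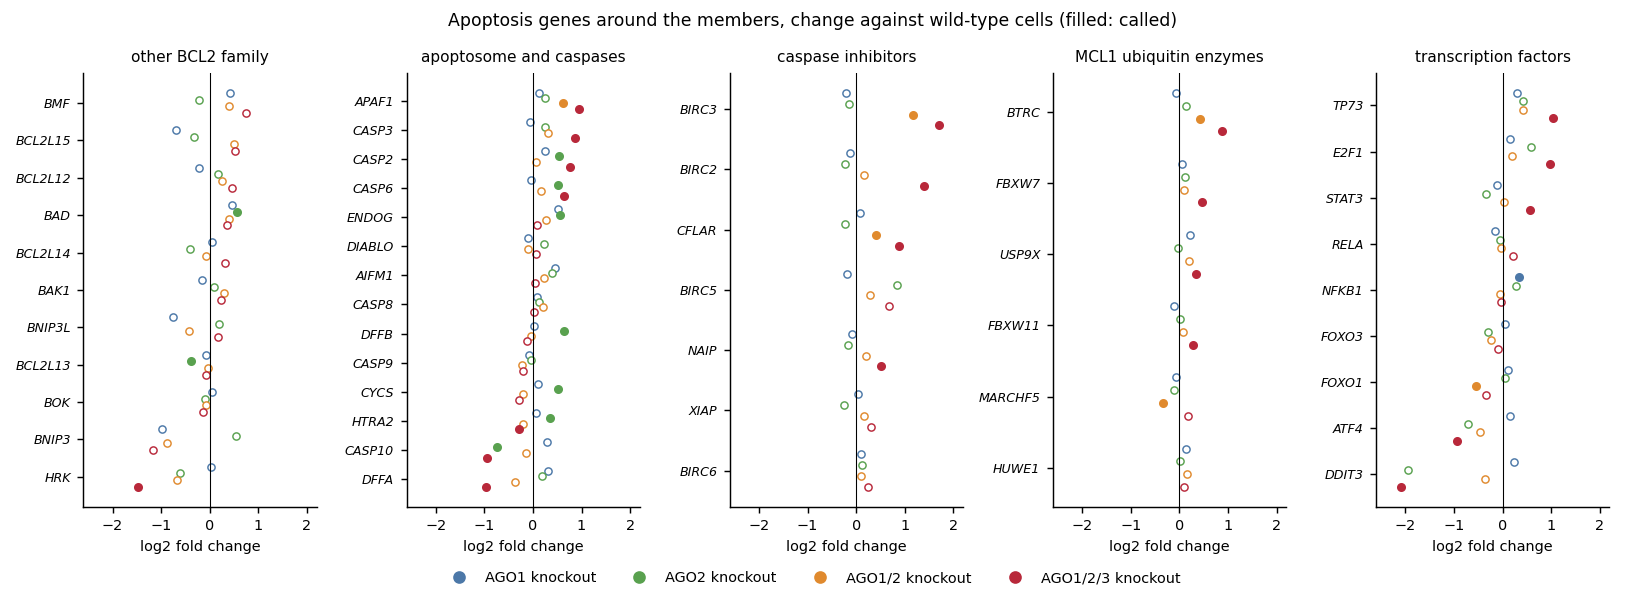
Log2 fold change against wild-type cells of genes shown from 5 lists around the members, by knockout line, filled where called. *BIRC3* and *BIRC2* stand highest and *DDIT3* and *HRK* lowest in *AGO1/2/3* knockout cells.

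Host genes of the miRNAs were measured as RNA, which is not the level of the mature miRNA. *MIR17HG*, which carries the miR-17-92 cluster, was 1.66-fold higher in *AGO1* and 1.85-fold higher in *AGO2* knockout cells and at -0.07 and -0.38 in the double and triple knockouts, where it was not called. The call in *AGO1* knockout cells was lost without wild-type replicate 2 or *AGO1* knockout replicate 2 and in the fit of only 6 samples (edgeR adjusted p up to 0.0844). *DLEU2*, the host of miR-15a and miR-16-1, was 1.70-fold higher in *AGO2* and 1.51-fold higher in *AGO1/2/3* knockout cells, the latter lost without wild-type replicate 2 (edgeR adjusted p = 0.0597). *SMC4*, the host of miR-15b and miR-16-2, was 2.10-fold higher in *AGO1/2/3* knockout cells. *MCM7*, the host of the related miR-106b cluster, was called in no line. *AGO4* RNA was 2.45-fold higher in *AGO1/2/3* knockout cells.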

How the data were processed

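RNAseq was measured in 15 samples, 3 replicates each of 5 lines. The authors depleted ribosomal RNA, made stranded libraries, sequenced paired ends on an Illumina NextSeq, aligned reads to hg38 with STAR and quantified them with Salmon. They deposited expected counts (estimated counts per gene, 1 file per sample), not normalized for depth. The submitters' processing notes name STAR 2.5.3a and Salmon 0.11.0, and how Salmon used strand is not given in the sources used here. The study's methods call the replicates biological, and the labels do not name the cultures behind them.

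Counts were rounded to whole numbers, filtered with edgeR's filterByExpr and scaled by TMM. A mean per line was fitted to all 15 samples with edgeR 4.0.16 (R 4.3.3) and compared by the quasi-likelihood test, with Benjamini-Hochberg adjustment over 22842 genes. The biological coefficient of variation was 0.152. The study's tool, DESeq2 (version 1.42.0 here), was an alternative, as were other scalings, filters, sample sets, the replicate number as a block and each sample left out. Tables were made with Python 3.11.15, numpy 2.4.6 and pandas 2.3.3. No pair of files, of 105, held identical values. Symbols, positions and 3′ UTRs (Ensembl canonical transcripts, 19538 in all) came from GENCODE v44 on GRCh38, which held 57167 of the 57875 identifiers.

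The members and lists were chosen with earlier results of these data known. Named genes were all members, in each list up to 4 called genes with the largest change in *AGO1/2/3* knockout cells and a mean of at least 1 CPM, and the 3 protein-coding genes most like *BCL2* and *BCL2L11*. *BAK1*, *BCL2A1*, *BCL2L10* and *STAT3* are named besides for their role, with their values seen. Genes counted in the lists but neither named nor drawn are not reported here. The 8 eCLIP samples were not analysed here. Depth was 27709971 to 45271146 counts per sample. *BCL2* in *AGO1/2* knockout cells rested on 18 to 41 counts, and SEs were widest for *BBC3*.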

Additional observations from a re-analysis of the deposited data

Results flagged for a closer look

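For 4 members the change in *AGO1/2* knockout cells differed from the sum of the changes in *AGO1* and *AGO2* knockout cells, by an interaction term tested in the same edgeR model and added after the data were seen. The term was -2.0385 on the log2 scale for *BCL2* (SE 0.28, edgeR adjusted p = 0.000168), whose single changes were 0.41 and -0.70 and whose combined change was -2.33. For *BCL2L1* it was 1.6074 (SE 0.25, edgeR adjusted p = 0.000508), with single changes of -0.76 and -0.32 and a combined change of 0.52. Both stayed called under all alternatives run. All *AGO1/2* knockout samples lay below those of both single lines for *BCL2* and above them for *BCL2L1*. That position does not by itself give the direction of the term, which also includes wild-type cells. For *BID* the term was -0.5884 (SE 0.17, edgeR adjusted p = 0.0269) and for *BIK* 0.5793 (SE 0.18, edgeR adjusted p = 0.0309). Each of these last terms was lost in 8 alternatives, 7 of them fits without a single library, with edgeR adjusted p up to 0.0815 and 0.138. With a single line per genotype, the term cannot be told apart from differences between lines. It also uses the *AGO2* knockout samples, whose files carry a different quantification mode. Their total counts were 45271146, 44582046 and 40419152, against 27709971 to 32381721 in the other samples of the term. The part of mode and depth in the term was not tested.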

How the results depend on the processing

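Over 23 alternatives, 1681 of 1829 recomputed values kept their direction and their side of the threshold, and 21 reversed, 0 of them for a called member. All members entered for the knockout lines against wild-type cells and for *AGO1/2/3* against *AGO1/2*. For the other pairs of lines and the interaction term, only members called in the main fit entered. Of the 23 alternatives, 15 left out a single library, often one from neither line compared. The number of the 10 members called fell from 3 to 1 in *AGO1* knockout cells when only the 6 samples compared were fitted, and rose from 3 to 5 in *AGO1/2* knockout cells with DESeq2. Of all genes, 659 of 21328 tested were called in the first of these fits and 3978 of 22938 in the second. The main fit called 1958 and 3810 of 22842. Leaving out each library in turn gave 1 to 3 members for *AGO1* knockout cells, 1 to 4 for *AGO2*, 2 to 4 for *AGO1/2* and 4 to 6 for *AGO1/2/3*, 4 to 6 for *AGO1/2/3* against *AGO1/2*, and 2 to 5 for the interaction term. All genes called in the same fits ranged from 955 to 1976, 1471 to 5059, 2554 to 3943 and 7669 to 9388 in the 4 lines. They ranged from 3554 to 5869 for *AGO1/2/3* against *AGO1/2*, with 23407 to 23550 genes tested. The cause of these shifts was not tested.

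Deviations from the line means had a mean correlation of -0.0114 for same-numbered samples (30 pairs, from -0.394 to 0.486). For different numbers it was 0.00563 (60 pairs, from -0.553 to 0.489). Deviations cancel out within a line by construction, so these means are not independent. They cannot show whether some samples of different lines shared a batch. With the replicate block, 3, 3, 3 and 5 members were called in the 4 lines, 5 for *AGO1/2/3* against *AGO1/2* and 4 for the interaction term. Of all 22842 genes tested, 1758, 3701, 3591 and 8899 were called in the 4 lines, and 4684 for *AGO1/2/3* against *AGO1/2*. The block added *BCL2L1* (edgeR adjusted p = 0.0199) and lost *BAX* (0.0681) in *AGO1/2* knockout cells, and lost *BID* in *AGO1/2/3* knockout cells (0.0597) and *BBC3* between the double and triple knockouts (0.0513).

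Scaling by total counts took the median of all genes in *AGO1/2/3* knockout cells from -0.01 to -0.15, the lowest median among the 4 lines. Under it uncalled values reversed to -0.0157 (*BCL2L11*) and -0.0106 (*BID*) in *AGO1*, -0.0122 (*BCL2L2*) and -0.0928 (*BIK*) in *AGO2*, -0.0566 (*PMAIP1*) in *AGO1/2*, and -0.0556 (*MCL1*) and -0.0332 (*BAX*) in *AGO1/2/3* knockout cells. With at least 10 counts in every sample *BIK* in *AGO2* knockout cells was -0.0126. Other reversals came from leaving out a library, with ranges for *AGO1* knockout cells of -0.1188 to 0.0405 (*MCL1*), -0.0063 to 0.197 (*BCL2L11*), -0.0025 to 0.6264 (*BBC3*) and -0.0419 to 0.1905 (*BID*), for *AGO2* knockout cells of -0.0053 to 0.1848 (*BCL2L2*) and -0.0764 to 0.0737 (*BIK*), and for *AGO1/2* knockout cells of -0.0266 to 0.208 (*BBC3*), -0.1313 to 0.1244 (*PMAIP1*) and -0.0045 to 0.2027 (*BID*).

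In fits of the 6 samples compared, 659, 1917 and 2137 of all genes were called in *AGO1*, *AGO2* and *AGO1/2* knockout cells, of 21328, 21757 and 21180 tested. The main fit called 1958, 4323 and 3810 of 22842. With a library left out as few as 955 were called in *AGO1* and 1471 in *AGO2* knockout cells. Called apoptosome and caspase genes ranged from 1 to 8 in *AGO2* knockout cells, other BCL2 family genes from 0 to 5 there and from 1 to 3 in *AGO1/2/3* knockout cells, and MCL1 ubiquitin enzymes and transcription factors from 2 to 5 and from 2 to 6 in *AGO1/2/3* knockout cells.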
